A study of Mus musculus with 4 samples.

Results

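The genes described here are 10 markers of the pyramidal cell fields of the hippocampus: Fibcd1, Gpr161, Wfs1, Pou3f1 and Mpped1 for field CA1, Rgs14, Amigo2 and Cacng5 for CA2, and Bok and Iyd for CA3. They were chosen by name, with earlier results of these data known. Their Ensembl identifiers were all found among the 55414 genes of the count table. All 10 passed the expression filter that left 21592 genes for testing. The libraries were 2 wild-type (WT) and 2 Stra8 knockout (KO) bulk messenger RNA libraries from mouse. The stated design is that mice of both genotypes carried pStra8-GFP, a fluorescent reporter under the Stra8 promoter, and that fluorescent cells were sorted from the hippocampus. The sample labels give the tissue only as brain. The sources used here give no age, sex, strain, knockout allele or number of animals per library. The p-values therefore rest on the spread between these libraries, which may be technical. For each gene the tests draw this spread in part from the other genes. Where a pair of values is given for a genotype, library 1 comes first.

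Pyramidal cells are the excitatory projection neurons of the hippocampus. Dentate granule cells send mossy fibres to CA3, CA3 cells send Schaffer collaterals to CA1, and CA1 is the main output to the subiculum and cortex, while the small CA2 field lies between CA3 and CA1 and is known for its resistance to synaptic potentiation and its part in social memory. The fields differ in the genes they transcribe, which is why a set of genes can stand for each of them. Few of these genes are restricted to their field, and Wfs1, Pou3f1 and Mpped1 are also known from neocortical neurons.

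Total counts ranged from 71097417 to 82172740 per library. Stra8 itself had 5 and 1 reads in the WT pair, against 7 and 4 reads in the KO pair, so the genotype labels could not be checked from it. The libraries also held transcripts known from outside the hippocampus, and many of these differed between genotypes. In counts of list members, here and below, fell and rose mean an adjusted p under 0.05 in edgeR. Over all genes tested 3.19% fell and 3.35% rose. A list of 10 cerebellar markers summed to 553 and 559 CPM (read counts scaled to the library size) in the WT pair against 374 and 370 CPM in the KO pair, and all 10 fell. Of 11 striatal markers 10 rose, with sums of 932 and 933 CPM in WT and 1120 and 1115 CPM in KO. Of 12 neocortical markers 8 rose, with sums of 541 and 542 CPM in WT and 616 and 608 CPM in KO. Of 8 thalamic markers 3 rose and 1 fell, and of 10 GABAergic interneuron markers 3 rose and 1 fell. Markers of cells other than neurons were present as well. All 8 oligodendrocyte markers rose, with sums of 10154 and 10231 CPM in WT and 10786 and 10803 CPM in KO. Of 8 choroid plexus markers 5 fell, with sums of 636 and 634 CPM in WT and 443 and 435 CPM in KO. Of 8 astrocyte markers 4 fell, of 8 endothelial markers 1 rose, and of 8 microglial markers 0 were called. Of 5 sex-linked genes Xist rose, from 297 and 287 CPM in WT to 441 and 420 CPM in KO. The 4 Y-linked genes fell, among them Ddx3y from 27.9 and 28.1 CPM to 11.9 and 11.6 CPM. Xist and Y-linked transcripts thus occurred together in every library, and their balance differed between genotypes. A difference in the sex of the source animals cannot be told apart from genotype here. No marker of these lists was at 0 in any library. The part of these differences in those of the pyramidal genes was not tested. In bulk libraries fewer cells of a type and less RNA per cell cannot be told apart.

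Of the 10 pyramidal field genes 5 were lower in KO and 0 were higher (quasi-likelihood test of edgeR with n = 2 libraries per genotype, at a Benjamini-Hochberg adjusted p under 0.05 over all genes tested). The 5 that fell were Fibcd1, Gpr161 and Wfs1 of CA1, Rgs14 of CA2 and Bok of CA3. Over all 21592 genes 3.19% were called lower and 3.35% higher, and among the 10171 genes with a mean of at least 10 CPM, as 9 of the 10 had, 5.54% were called lower. The median log2 fold change of the 10 genes was -0.15, against -0.00038 for all genes tested. At an unadjusted p under 0.05, 7 were lower and 1, Mpped1, was higher, against 8.53% lower and 8.86% higher among all genes tested. DESeq2 and limma-trend also called 0 of the 10 higher. Values were below 0 for 9 of the 10, as for 50.1% of all genes tested. All 10 genes had WT libraries entirely above or entirely below the KO libraries, which was also true of 45.7% of all genes tested, and for 9 of them the KO libraries were the lower ones, as for 22.9% of all genes. Because the 10 genes were chosen with earlier results of these data known, these shares give no measure of an excess among them. Only the falls of Fibcd1 and Gpr161 were called under all 14 alternative settings, and the other 3 calls were lost under some of them.

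**Figure D1:**
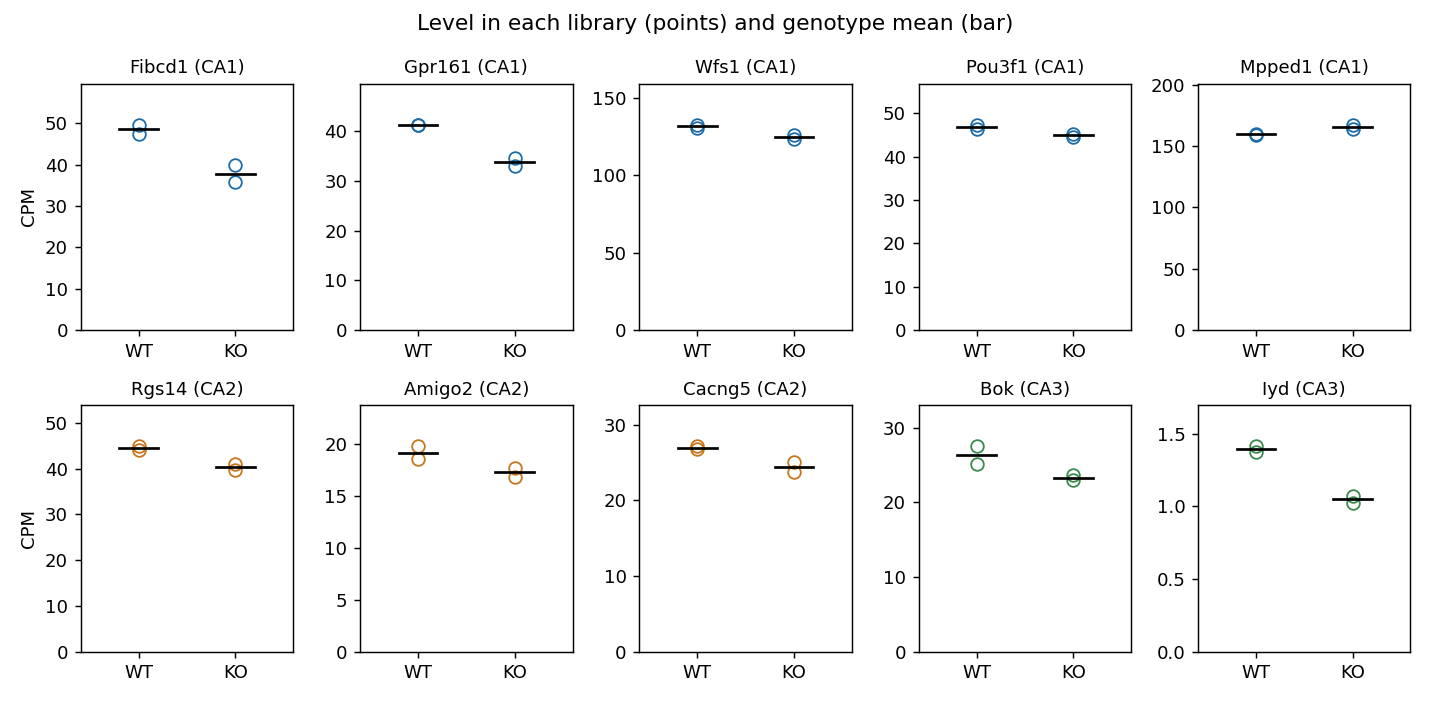
Level of each of the 10 pyramidal field genes in CPM (y axis, from 0, a separate scale per gene) in the WT and KO libraries (x axis). Each point is 1 library and each bar the mean of 2 libraries, and colours mark the field. Fibcd1 falls from 49.6 and 47.5 CPM to 39.8 and 35.7 CPM, while Mpped1 lies between 159 and 168 CPM in all 4 libraries.

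Reference promoter sequences, which RefSeq gives for the GRCm38.p6 build, were matched for 8 of the 10 genes, all except Pou3f1 and Rgs14. The 250 bases before the start site are shown for the pair of genes with the firmest falls, Fibcd1 and Gpr161, and for Mpped1, whose value went the other way. They lie at chr2:31846006-31846255 on the minus strand for Fibcd1, chr1:165295516-165295765 on the plus strand for Gpr161 and chr15:83779773-83780022 on the plus strand for Mpped1, the last 2 being the first of 2 start sites in the table. Capitals mark the letters GGGCGG (the GC box), CAGATG (an E-box of the kind that NeuroD factors bind) and TGACG (the core of the cyclic AMP response element), on either strand. No match overlaps another.
Fibcd1: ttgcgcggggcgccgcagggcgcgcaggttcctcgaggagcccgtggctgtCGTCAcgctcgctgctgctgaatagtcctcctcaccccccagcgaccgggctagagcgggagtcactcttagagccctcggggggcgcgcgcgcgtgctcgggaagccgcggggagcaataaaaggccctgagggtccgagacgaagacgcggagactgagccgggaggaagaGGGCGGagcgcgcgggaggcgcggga
Gpr161: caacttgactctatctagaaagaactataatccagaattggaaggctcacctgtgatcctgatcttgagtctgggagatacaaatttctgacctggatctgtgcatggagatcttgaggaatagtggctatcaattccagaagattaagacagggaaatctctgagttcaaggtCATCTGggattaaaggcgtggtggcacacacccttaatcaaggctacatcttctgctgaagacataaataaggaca
Mpped1: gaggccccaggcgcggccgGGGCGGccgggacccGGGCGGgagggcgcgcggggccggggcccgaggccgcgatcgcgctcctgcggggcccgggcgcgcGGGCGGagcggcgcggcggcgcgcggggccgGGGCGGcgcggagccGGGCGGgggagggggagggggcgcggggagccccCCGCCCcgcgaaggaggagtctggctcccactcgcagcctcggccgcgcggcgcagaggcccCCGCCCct
The Fibcd1 window held 1 GC box and 1 TGACG, the latter on the other strand and so printed as CGTCA. The Gpr161 window held 1 CAGATG, also on the other strand and printed as CATCTG, and the Mpped1 window 7 GC boxes. Over all 32851 RefSeq promoter windows of this length 32.7% held a GC box, 14.4% CAGATG and 17.8% TGACG. The bases G and C made up 71.6% of the Fibcd1 window, 42.4% of the Gpr161 window and 88.8% of the Mpped1 window, against a median of 52.4% over all windows. The second Mpped1 start site held 0 GC boxes, at 46.8% G and C. Among genes with values below 0, Wfs1 and Amigo2 held 4 GC boxes each, at 69.6% and 84% G and C. The first Cacng5 window held 2 GC boxes, Bok 1 and Iyd 0. The Wfs1 and Iyd windows also held 1 CAGATG each, and the Iyd window 1 TGACG. The windows shown for Fibcd1 and Gpr161 differ in base composition and share none of the 3 motifs. The second Gpr161 start site held none of these motifs, at 46.8% G and C. Most windows lack each motif, and a link between these sequences and the genotype differences was not tested.

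Fibcd1 (ENSMUSG00000026841) encodes a membrane receptor that binds acetylated sugars such as chitin, and is a marker of CA1 pyramidal cells. It had 4006 and 3896 reads in the WT pair and 3258 and 2532 reads in the KO pair. Scaled to library size these were 49.6 and 47.5 CPM in WT and 39.8 and 35.7 CPM in KO. Both KO libraries were below both WT libraries, and KO library 2 was the lowest. The mean fell from 48.6 ± 1.52 to 37.8 ± 2.87 CPM (SD, n = 2). The log2 fold change was -0.36 (standard error 0.044, adjusted p = 4.17e-06 in edgeR), or -22.1%. The log2 ratio of the KO libraries to each other was -0.16, so the spread within KO was smaller than the difference between genotypes. Without KO library 2 the log2 fold change was -0.29 and without KO library 1 it was -0.44, and the gene was called in both cases.

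Gpr161 (ENSMUSG00000040836) encodes a receptor of the primary cilium that restrains Hedgehog signalling by way of cyclic AMP. It had 3334 and 3392 reads in the WT pair, against 2696 and 2450 reads in the KO pair. In CPM these were 41.31 and 41.34 in WT and 32.9 and 34.6 in KO. The WT libraries were nearly equal, and both KO libraries were lower. The log2 fold change was -0.29 (standard error 0.041, adjusted p = 2.78e-05 in edgeR), or -18.4%. Leaving out any 1 library gave values from -0.33 to -0.26.

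The other 3 CA1 genes had smaller log2 fold changes, between -0.077 and 0.055, and of these Wfs1 passed. Wfs1 (ENSMUSG00000039474) encodes wolframin, a protein of the endoplasmic reticulum membrane whose loss causes Wolfram syndrome. Its level was 131 and 133 CPM in the WT pair, against 126 and 123 CPM in the KO pair. The log2 fold change was -0.077 (standard error 0.023, adjusted p = 0.0456 in edgeR). The call was lost without WT library 1, WT library 2 or KO library 2 (adjusted p = 0.0798, 0.280 and 0.263 in edgeR). It was also lost in DESeq2 (adjusted p = 0.179), in limma-trend (0.0564), with the edgeR dispersion set to 0 (0.0573) and with halved counts (0.0668).

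Pou3f1 (ENSMUSG00000090125), a POU-domain transcription factor also known as Oct6, had 47.4 and 46.4 CPM in the WT pair, against 45.1 and 44.6 CPM in the KO pair. Its log2 fold change was -0.063 (standard error 0.036, adjusted p = 0.398 in edgeR) and did not pass. In the reference annotation 8.57% of its exon bases overlap an antisense gene, Gm2164, which had 60 to 88 reads per library. Whether counting used strand is not stated in the sources used here, so reads of both genes in the shared bases cannot be told apart. Mpped1 (ENSMUSG00000041708), which encodes a metallophosphoesterase of unsettled function, had 159 and 160 CPM in the WT pair, against 168 and 164 CPM in the KO pair. It was the only 1 of the 10 with a value above 0. This log2 fold change was 0.055 (standard error 0.021, adjusted p = 0.138 in edgeR), and the gene did not pass. The CA1 markers thus ran from -0.36 to 0.055 on the log2 scale, with the largest differences in Fibcd1 and Gpr161.

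The 3 CA2 genes had nearly equal log2 fold changes, between -0.15 and -0.14, of which 1 passed. Rgs14 (ENSMUSG00000052087), a regulator of G protein signalling that limits synaptic potentiation in CA2, had 3620 and 3619 reads in the WT pair, against 3367 and 2810 reads in the KO pair. These were 44.9 and 44.1 CPM in WT and 41.1 and 39.7 CPM in KO. The log2 fold change was -0.14 (standard error 0.038, adjusted p = 0.0271 in edgeR), or -9.16%. The call was lost without WT library 1, WT library 2 or KO library 2 (adjusted p = 0.182, 0.0642 and 0.185 in edgeR) and in DESeq2 (adjusted p = 0.123).

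Amigo2 (ENSMUSG00000048218), a leucine-rich repeat adhesion protein of neurons, had 19.8 and 18.6 CPM in the WT pair, against 17.7 and 16.8 CPM in the KO pair. Its log2 fold change was -0.15 (standard error 0.060, adjusted p = 0.164 in edgeR). Cacng5 (ENSMUSG00000040373), an auxiliary subunit of AMPA-type glutamate receptors, had 27.1 and 26.7 CPM in the WT pair, against 25.0 and 23.7 CPM in the KO pair. Its log2 fold change was -0.14 (standard error 0.050, adjusted p = 0.102 in edgeR). Both log2 fold changes were close to that of Rgs14, with larger standard errors, and neither gene passed. Amigo2 shares 1.83% of its exon bases with Pced1b on the other strand.

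Of the 2 CA3 genes Bok fell and Iyd did not pass. Bok (ENSMUSG00000026278), a member of the Bcl-2 family of cell death regulators, had 2033 and 2257 reads in the WT pair, against 1936 and 1631 reads in the KO pair. These were 25.2 and 27.5 CPM in WT and 23.6 and 23.0 CPM in KO. The log2 fold change was -0.18 (standard error 0.053, adjusted p = 0.0478 in edgeR), or -11.4%. The WT libraries differed from each other by 0.13 on the log2 scale, the widest gap between WT libraries among the 10 genes. Without WT library 2 the log2 fold change was -0.11 (adjusted p = 0.511 in edgeR). The call was also lost without KO library 1 or KO library 2 (adjusted p = 0.0607 and 0.156 in edgeR) and in DESeq2 (adjusted p = 0.185).

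Iyd (ENSMUSG00000019762), the deiodinase that recovers iodide from iodotyrosines in the thyroid, was the least abundant of the 10. It had 111 and 116 reads in the WT pair, against 84 and 76 reads in the KO pair, or 1.38 and 1.41 CPM against 1.03 and 1.07 CPM. Its log2 fold change of -0.41 was the lowest of the 10, but the standard error was 0.21 and the gene did not pass (adjusted p = 0.324 in edgeR).

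**Figure D2:**
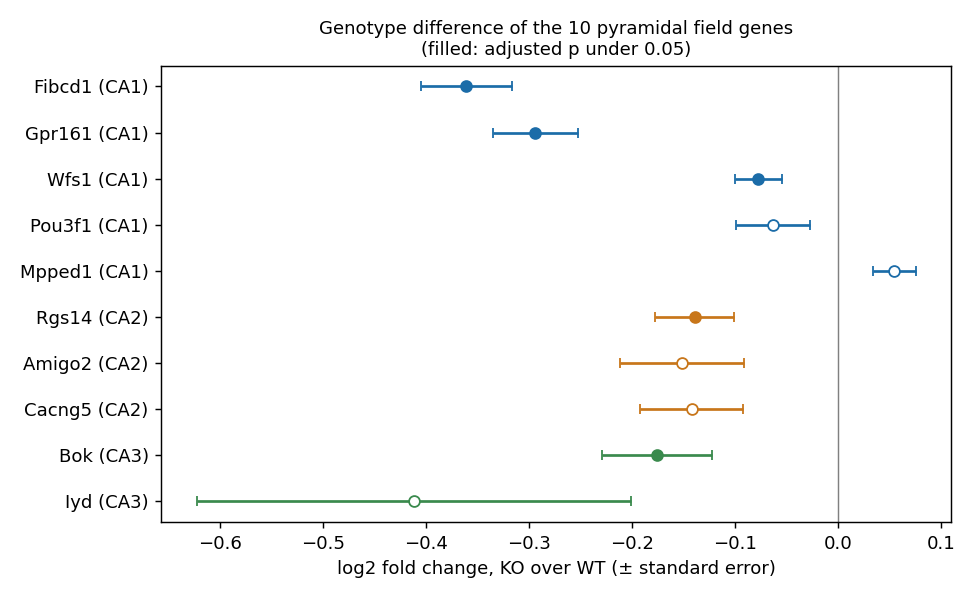
Log2 fold change of KO over WT (x axis) for each of the 10 genes (y axis), with bars of 1 standard error from the edgeR fit, coloured by field. Filled points passed at an adjusted p under 0.05. Values run from -0.41 for Iyd, which has the widest bar, to 0.055 for Mpped1.

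**Figure D3:**
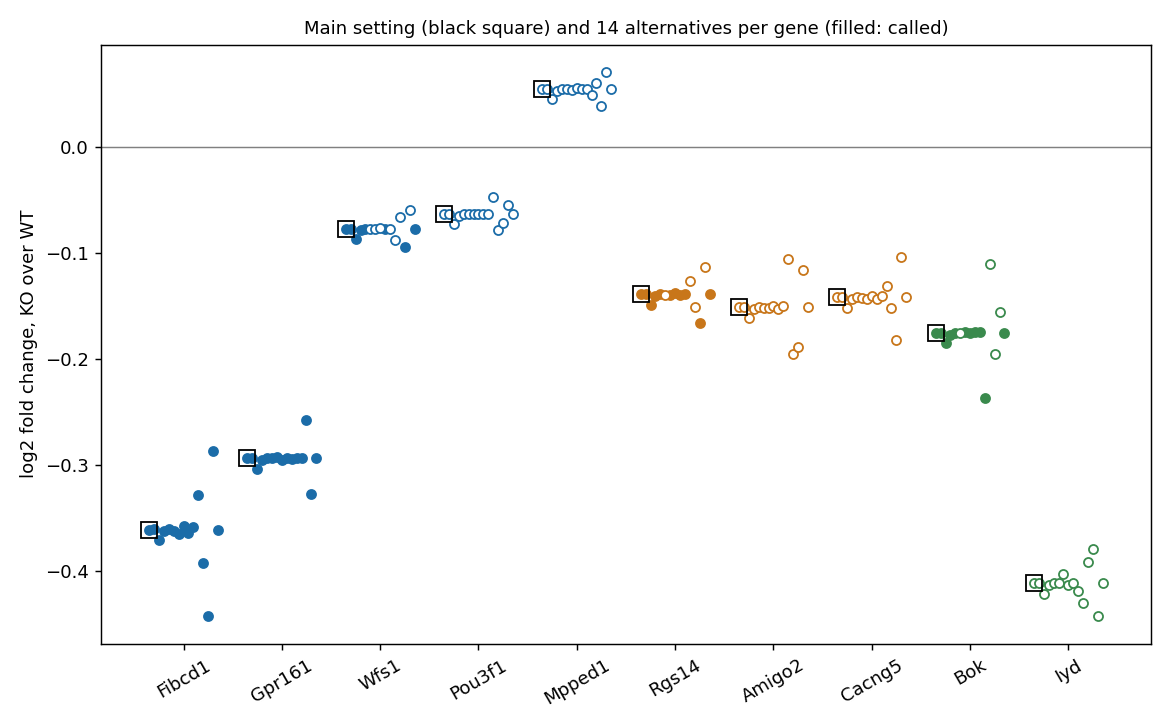
Log2 fold change of KO over WT (y axis) of each of the 10 genes (x axis) in the main setting, marked by a black square, and in 14 alternatives. Points are filled where the gene was called. Fibcd1 and Gpr161 are filled throughout, Wfs1, Rgs14 and Bok in part, and no gene crosses 0.

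Levels of different genes were compared as CPM per kilobase of exon, with exon lengths from the reference annotation. Averaged over the 4 libraries, Mpped1 was highest at 37.9 and Wfs1 next at 33.8, followed by Bok at 13.5, Pou3f1 at 11.9, Rgs14 at 10.01 and Fibcd1 at 9.08. Cacng5 at 6.69, Amigo2 at 5.76, Gpr161 at 5.39 and Iyd at 0.753 CPM per kilobase were lower. The ranges over the 4 libraries overlapped between the neighbours Rgs14 and Fibcd1, Cacng5 and Amigo2, and Amigo2 and Gpr161, and between no other neighbours in this order. Rgs14 and Fibcd1 were close in WT, with 10.6 and 10.4 CPM per kilobase for Rgs14 and 10.4 and 9.99 for Fibcd1. In KO they were further apart, with 9.70 and 9.35 CPM per kilobase for Rgs14 and 8.37 and 7.52 for Fibcd1.

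Further genes known from each field were listed apart from the 10. Of 6 other CA1 genes 1 fell and 1 rose, with a median log2 fold change of -0.045. It was -0.014 when WT library 1 was left out, -0.074 when WT library 2 was and -0.027 when KO library 2 was. Spink8, a protease inhibitor gene with strong CA1 preference, had 1.66 and 1.96 CPM in the WT pair, against 1.04 and 1.101 CPM in the KO pair. Its log2 fold change was -0.76 (standard error 0.20, adjusted p = 0.0177 in edgeR), a call lost without WT library 2 or KO library 1 (adjusted p = 0.157 and 0.0784 in edgeR) and in DESeq2 (adjusted p = 0.111). Lefty1, an antagonist of Nodal signalling, had a log2 fold change of -0.57 that did not pass (adjusted p = 0.0989 in edgeR), and WT library 2 was its highest at 2.40 CPM. Without WT library 1 it was called at -0.82 (adjusted p = 0.00803 in edgeR), while without WT library 2 the value was -0.26. Ccn3, a matrix-associated signalling protein, had 0.041 (adjusted p = 0.492 in edgeR).

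Among 10 other CA2 genes 9 were tested and 3 rose, with a median of 0.011. This median had no stable sign: leaving out WT library 1 or KO library 1 gave -0.0078 and -0.0074, and leaving out WT library 2 or KO library 2 gave 0.078 and 0.063. The 3 that rose were Ptpn5, a tyrosine phosphatase first named for its enrichment in striatum, Adcy5, the main adenylyl cyclase of striatal neurons, and Pcp4, a calmodulin-binding protein also known from Purkinje cells. Ptpn5 rose from 223 and 227 CPM to 249.7 and 251 CPM (log2 fold change 0.16, standard error 0.018). Adcy5 rose from 308 and 303 CPM to 333 and 330 CPM (log2 fold change 0.12, standard error 0.017). Pcp4 rose from 17.8 and 17.5 CPM to 22.03 and 20.3 CPM (log2 fold change 0.27, standard error 0.058, adjusted p = 0.00447 in edgeR), a call lost without KO library 1 (adjusted p = 0.0870 in edgeR). The striatal markers given above rose in the same libraries, and their part in these values was not tested. Sostdc1, a secreted antagonist of BMP and Wnt signals, had -0.24 (adjusted p = 0.270 in edgeR). Its value was -0.11 when WT library 1 was left out and -0.35 when WT library 2 was. Avpr1b, the vasopressin receptor that marks CA2, had 18 and 6 reads in the WT pair, against 4 and 2 in the KO pair, and was too low to be tested.

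Of 9 other CA3 genes 3 fell and 1 rose, with a median of -0.041, or of -0.10 when either WT library 1 or KO library 1 was left out and -0.076 when WT library 2 was. Tspan18, a tetraspanin, fell from 15.64 and 15.56 CPM to 11.6 and 11.7 CPM. Its log2 fold change was -0.42 (standard error 0.066, adjusted p = 0.000106 in edgeR). Grik4, a kainate receptor subunit of CA3 synapses, fell by 0.16 on the log2 scale (standard error 0.043, adjusted p = 0.0193 in edgeR). Its call was lost without WT library 1, WT library 2 or KO library 2 (adjusted p = 0.101, 0.0840 and 0.119 in edgeR) and in DESeq2 (adjusted p = 0.0882). Coch, which encodes the extracellular protein cochlin, rose from 21.3 and 22.5 CPM to 27.7 and 27.3 CPM. Here the log2 fold change was 0.33 (standard error 0.051, adjusted p = 9.67e-05 in edgeR).

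In a list of 10 genes of hippocampal glutamatergic neurons at large 5 fell and 1 rose, with a median of -0.063, and of -0.090 without WT library 2. Cpne6, a calcium-dependent membrane-binding copine, fell from 241 and 245 CPM to 202 and 205 CPM (log2 fold change -0.26, standard error 0.019). Zbtb20, a transcription factor needed for CA1 identity, fell from 238 and 246 CPM to 204 and 207 CPM (log2 fold change -0.24, standard error 0.020). Neurod2, a neuronal basic helix-loop-helix factor, fell by 0.24, and Hpca, the calcium sensor hippocalcin, fell by 0.14 on the log2 scale. In the same list Nptxr rose by 0.044 on the log2 scale (adjusted p = 0.0421 in edgeR). Slc17a7, at 0.031, and Spock1, at -0.0065, did not pass. For comparison, 7 of 11 dentate granule cell markers fell, with a median of -0.27, below the median of -0.15 of the 10 pyramidal field genes. No test of the difference between those medians was made.

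**Figure D4:**
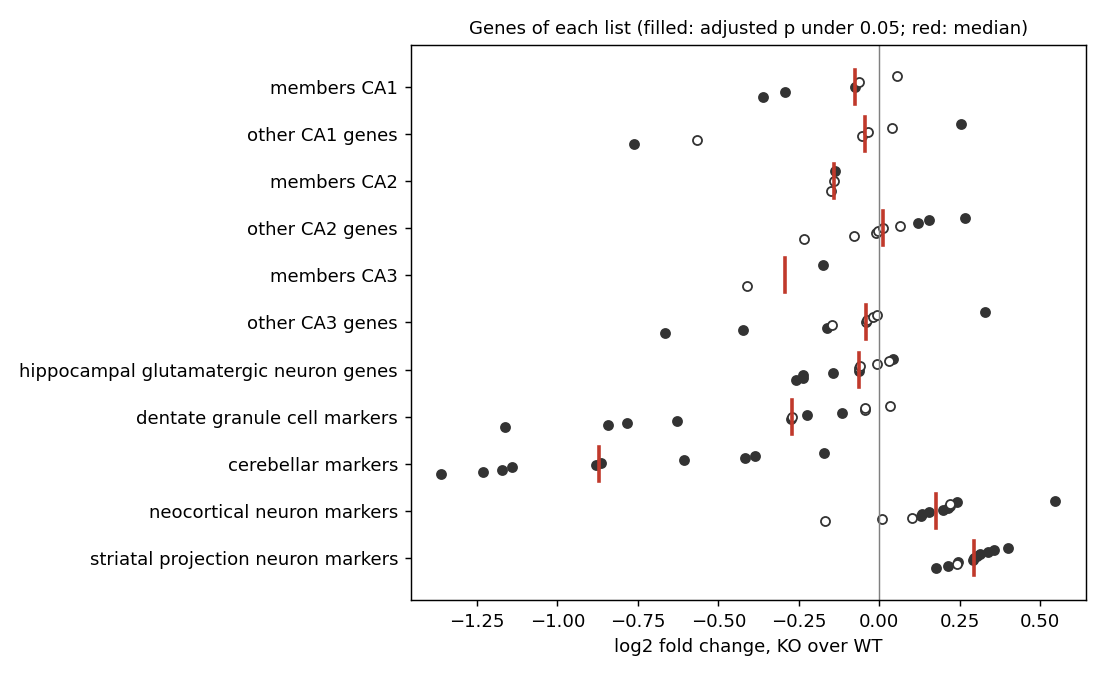
Log2 fold change of KO over WT (x axis) of single genes in the 10 pyramidal field genes by field and in 8 further lists (y axis). Each point is 1 gene, filled where the adjusted p was under 0.05, and each red bar is a list's median. Points of the cerebellar list lie below 0 and those of the striatal list above 0, while the lists of other CA1, CA2 and CA3 genes hold points on both sides.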

How the data were processed

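The libraries were strand-specific, made from poly(A) RNA and read as pairs, per the labels' protocols. The authors deposited raw counts per Ensembl gene, in 1 table. FastQC, STAR 2.6.1c, featureCounts, DESeq2 and the GRCm39 build are named, per the submitters' processing notes, without their roles. Of the counts from 1 to 20, 72.8% to 74.3% were even, so a fragment may add 2 reads. Columns were matched to samples by title, and symbols to 52081 of 55414 identifiers. Both KO columns add the suffix -Huang to the title and neither WT column does. The meaning of the suffix is not stated, and whatever it marks cannot be told apart from genotype. GENCODE M21 (GRCm38) gave exon lengths and overlaps only.

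Genotype was tested with edgeR 4.0.16 in R 4.3.3 (filterByExpr, minimum count 10, TMM, glmQLFit and glmQLFTest on genotype, Benjamini-Hochberg over 21592 genes). CPM uses the scaled library size, and the SE is the log2 fold change over the square root of F. The 10 genes and all lists were chosen with earlier results of these data known. All 10 are named, and of each further list up to 4 tested members with the smallest p. Avpr1b, Nptxr, Slc17a7 and Spock1 are named besides. Not every gene chosen by its p is reported here. Lists have no test. The 14 alternatives were scaling by library size only or by the size factors of DESeq2, a stricter filter (1 CPM in 2 libraries) or none, the replicate block, dispersion 0, halved counts, an adjusted p under 0.1, DESeq2 1.42.0, limma-trend (limma 3.58.1, prior count 2) and each library left out, where a lone library is assumed to vary like the other genotype. The procedure was checked on simulated data with independent libraries, in which only genes of high count were changed. That check did not cover genes as low as Iyd or libraries that are technical replicates.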

Additional observations from a re-analysis of the deposited data

How the results depend on the processing

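The direction of all 10 pyramidal field genes was kept under the 14 alternatives, and Fibcd1 and Gpr161 were called in each. The number called lower, 5, was 2 in DESeq2, where 443 of all genes were called lower and 474 higher, against 688 and 723. With 1 library left out it ranged from 2 to 4, and the number called higher was 0 throughout. The number called lower was 4 with limma-trend, with the dispersion set to 0 and with halved counts, where Wfs1 did not pass. Over all genes, leaving out 1 library gave 506 to 618 calls lower and 558 to 660 higher. With library size alone 828 were lower and 601 higher. With the replicate number as a block, edgeR called 5 of the 10 lower, 0 higher, and 772 lower and 818 higher over all genes, and it changed no call among the 10. The deviations of same-numbered libraries had a correlation of 0.034 across 14638 genes, which are not independent replicates. With 2 libraries per genotype this value cannot show whether same-numbered libraries shared more than a number.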
